A study of Arabidopsis thaliana with 12 samples.

Results

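Transcript levels in flg22-treated cerk1 seedlings were compared with those in flg22-treated wild-type seedlings of Arabidopsis thaliana, in order to ask which genes stood at a different level when the receptor mutant rather than wild type was treated. The comparison uses 2 of the 12 RNA sequencing libraries of the series, chosen by their titles: cerk1 with flg22 (cerk1_flg22) and wild type with flg22 (WT_flg22). Both came from whole seedlings aged 10 days that were grown on agar medium with sucrose and treated with 100 nM flg22. The mock libraries of the same genotypes, WT_mock and cerk1_mock, came from seedlings of the same age that received sterile water, and they serve as the background. The other 8 libraries come from untreated cerk1 seedlings carrying a FLAG-tagged CERK1 transgene driven by the CERK1 promoter, in 4 lines of 2 libraries each, and are used here for levels in further seedlings and for the spread between libraries.

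Each combination of genotype and treatment had 1 library, so no p value is given and no difference between genotypes could be set against a spread between replicates. The duration of the flg22 treatment and the number of seedlings per library are not given in the labels. For the library titled cerk1 with flg22 the genotype label reads cerk2-/-, and the title was followed. Total counts were 22663236 in WT_flg22, 20491446 in cerk1_flg22, 18565607 in WT_mock and 18159354 in cerk1_mock. Levels are CPM (counts scaled to a common library size) after TMM scaling, which sets the libraries to a common level over most genes, and are given throughout in the order WT_mock, cerk1_mock, WT_flg22 and cerk1_flg22.

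Plants detect microbes through receptors at the cell surface. The receptor kinase FLS2 binds flg22, a peptide of bacterial flagellin, and signals with its co-receptor BAK1 and the cytoplasmic kinase BIK1, whereas the LysM receptor kinase CERK1 serves in the perception of chitin together with LYK5 and LYK4. Downstream of such receptors, immunity genes are induced within minutes to hours, and the hormones salicylic acid and jasmonate control partly opposed sets of defence genes.

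CERK1 itself stood at 24.9, 9.7, 273 and 119 CPM. The transcript was therefore 2.29-fold lower in cerk1_flg22 than in WT_flg22 (95% counting interval 2.18 to 2.41) and was still detected in both libraries labelled cerk1. A count over the whole gene does not show whether an intact transcript was made. HEI10 (AT1G53490), a gene of meiotic crossover formation, separated the genotypes in both treatments, with 2.32, 36.1, 2.95 and 37.2 CPM. It was 12.6-fold higher in cerk1_flg22 (9.65 to 16.7). MRD1 (AT1G53480), which overlaps HEI10 on the opposite strand in the annotation, stood at 0, 3.07, 0.1 and 1.61 CPM. The strand setting of the counting is not given in the sources used here, so reads of HEI10 and MRD1 cannot be told apart. QQS, a gene of carbon and nitrogen allocation found in Arabidopsis, followed the same pattern at 1.81, 9.80, 0.351 and 9.46 CPM. For HEI10, MRD1 and QQS the library whose genotype label reads cerk2-/- stood with the other cerk1 library, above both wild-type libraries. All are among the 8 genes higher in both treatments, so this order follows from their choice and does not settle the label. In the 8 transgenic libraries, which are also of cerk1 background, HEI10 lay between 6.90 and 11.6 CPM and MRD1 between 30.9 and 36.4 CPM. Those libraries were counted on partly different gene models and scaled separately, so their levels are not comparable with the 4 above.

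The neighbours of CERK1 on chromosome 3 were also examined. TWD1, an immunophilin-like gene on 1 side, stood at 12.8, 13.7, 14.2 and 16.5 CPM and was within 1.5-fold between genotypes in both treatments. AT3G21620, an ERD-family gene on the other side, stood at 0.454, 2.26, 0.150 and 2.77 CPM and was 18.4-fold higher in cerk1_flg22 (5.98 to 92.1), from 3 counts in WT_flg22. DMP2, which lies 8 genes away and was picked after its values were seen, had 9.93, 0.804, 8.46 and 1.61 CPM. Both AT3G21620 and DMP2 differed in the same direction between the mock libraries.

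Among 18872 measured genes, 121 (0.641%) exceeded 2-fold in favour of cerk1_flg22 and 183 (0.97%) in favour of WT_flg22, on the scale of CPM + 1. Past 4-fold there were 17 genes higher (0.0901%) and 7 lower (0.0371%). The 2 libraries were within 1.5-fold of each other for 17330 genes (91.8%). The median log2 ratio of all genes was -0.005. When the libraries were scaled by their totals instead of TMM, this median moved to 0.119 and the same thresholds gave 160 genes higher and 123 lower, so the share of higher genes went from 39.8% to 56.5% of those past 2-fold. All 121 and all 183 genes had a 95% counting interval that excluded a ratio of 1. At this depth the rule of 2-fold on CPM + 1 brings that about by itself, so it adds no support. Counting intervals cover counting error only. Between the mock libraries, 57 genes (0.302%) stood past 2-fold on the higher side in cerk1 and 756 (4.01%) on the lower side. Past 4-fold there were 6 (0.0318%) and 102 (0.54%) in mock.

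**Figure D1:**
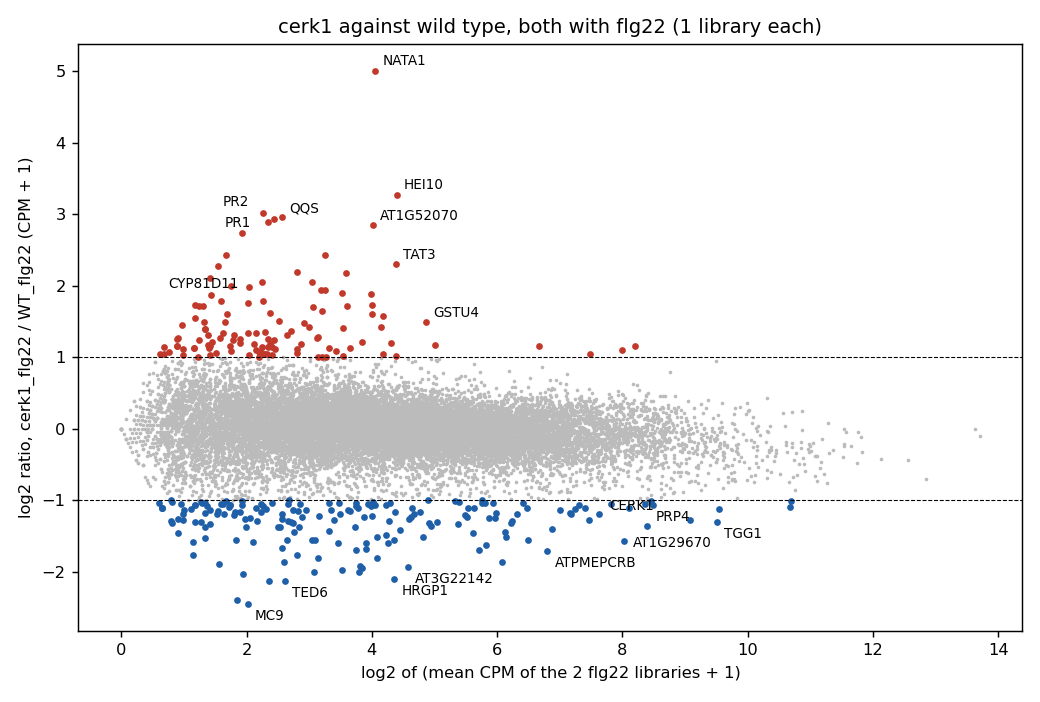
Log2 ratio of cerk1_flg22 to WT_flg22 (CPM + 1, vertical axis) against the log2 of the mean level of the 2 libraries plus 1 (horizontal axis) for each of 18872 measured genes, with dashed lines at 2-fold. The 121 higher genes (red) have a median larger level of 6.04 CPM and reach the largest ratio at NATA1, whereas the 183 lower genes (blue) have a median larger level of 14 CPM and include abundant transcripts such as TGG1.

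Higher genes were mostly low in abundance. In 41 of the 121 higher genes, the library with more reads reached 10 CPM, against 101 of the 183 lower genes. Over all 18872 measured genes this held for 12472, so both sets held fewer such genes in proportion than all genes did. On chromosomes 1 to 5 the lower genes numbered 53, 21, 34, 35 and 40. The higher genes numbered 26, 29, 19, 15 and 28, besides 3 of the plastid genome. Measured genes were not counted per chromosome, so these numbers cannot be set against a share over all genes.

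The gene with the highest ratio was NATA1 (AT2G39030), an acetyltransferase that makes the jasmonate-inducible defence metabolite N-acetylornithine. It had 0 CPM in WT_mock, cerk1_mock and WT_flg22 and 31.2 CPM, from 619 counts, in cerk1_flg22. Against a floor of 3 counts it was at least 207-fold higher. The pentatricopeptide repeat gene AT5G12100 and the uncharacterized gene AT2G48090 also had 0 counts in WT_flg22, with 4.38 and 3.83 CPM in cerk1_flg22, and were at least 29.1-fold and 25.5-fold higher. In the transgenic lines NATA1 ranged from 1.76 to 23.8 CPM, and the 2 libraries of the line CERK1_3A held 23.8 and 2.13 CPM.

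Some other genes that respond to jasmonate were high in the same library. Of 21 measured genes of jasmonate output, 8 were at least 2-fold higher and 0 lower in cerk1_flg22, with a median log2 ratio of 0.55, and 14 of the 21 lay above 0. With 5 in place of 1 added to CPM, 4 were past 2-fold and the median was 0.32, and among the 16 genes reaching 5 CPM in a library 6 were past 2-fold, with a median of 0.12. TAT3, a tyrosine aminotransferase induced by jasmonate, stood at 3.48, 0.452, 6.06 and 33.8 CPM and was 5.58-fold higher (4.59 to 6.83). TPS04, the geranyllinalool synthase of volatile terpene formation, stood at 0, 0, 0.351 and 4.38 CPM, or 12.5-fold higher (5.81 to 32.0). Both were highest in cerk1_flg22 of the 4 libraries.

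The plant defensin PDF1.2, an antifungal peptide under joint jasmonate and ethylene control, had 6, 5.38, 11 and 26.5 CPM (2.41-fold higher, 2.05 to 2.83). Its close copies PDF1.2b and PDF1.2c had 0.150 and 0.25 CPM in WT_flg22 against 3.22 and 8.56 CPM in cerk1_flg22. The 3 copies are similar in sequence, and how reads were divided among them could not be checked. PR4, a hevein-like chitin-binding protein, had 113, 115, 116 and 240 CPM, so that cerk1_flg22 stood apart from the other 3 libraries. The cystine lyase gene CORI3 and the myrosinase-binding protein gene MBP1, both named after their values were seen, were 2.33-fold (2.06 to 2.63) and 2.31-fold (1.85 to 2.90) higher. For CORI3 the 4 levels were 36.3, 20.6, 18.7 and 43.4 CPM, with a lower value in the flg22 library than in the mock library of wild type and the opposite order in cerk1.

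The genes that make and turn over jasmonate were mostly within 2-fold. Of 28 measured, 2 were at least 2-fold higher and 0 lower, with a median log2 ratio of -0.16. The 2 were LOX2, the plastid lipoxygenase of jasmonate synthesis after wounding, at 300, 262, 162 and 348 CPM, and CYP94C1, which oxidises jasmonoyl-isoleucine, at 1.51, 0.603, 5.41 and 16.0 CPM. LOX2 was lower in WT_flg22 than in WT_mock, whereas in cerk1 it was higher with flg22. LOX4, another lipoxygenase, stood at 404 CPM in WT_flg22 and 232 CPM in cerk1_flg22. In the mock libraries jasmonate output genes had a median log2 ratio of -0.22, with 0 genes at least 2-fold higher and 4 lower in cerk1.

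Genes under salicylic acid differed in both directions. PR1, a secreted pathogenesis-related protein and the standard salicylic acid marker, stood at 0, 0.754, 0.200 and 7.90 CPM and was 39.5-fold higher in cerk1_flg22 (15.1 to 147). PR2 (annotated as BGL2), a beta-1,3-glucanase, stood at 0.151, 0.251, 0.0501 and 7.5 CPM, which is 150-fold higher (26.5 to 5954) and rests on 1 count in WT_flg22. PR5, a thaumatin-like protein, was in contrast 2.98-fold lower (2.60 to 3.43), at 14.3, 6.18, 40.7 and 13.6 CPM. PR1 and PR2 were higher in cerk1_flg22 than in the other 3 libraries, while PR5 was highest in WT_flg22. Of 26 measured genes of salicylic acid and N-hydroxypipecolic acid, 2 were at least 2-fold higher and 1 lower, with a median of -0.12. SARD1, a transcription factor that activates salicylic acid synthesis, stood at 0.403, 0.905, 40.4 and 20.24 CPM. In the transgenic lines PR1 ranged from 7.44 to 48.7 CPM and PR2 from 15.0 to 50.4 CPM.

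**Figure D2:**
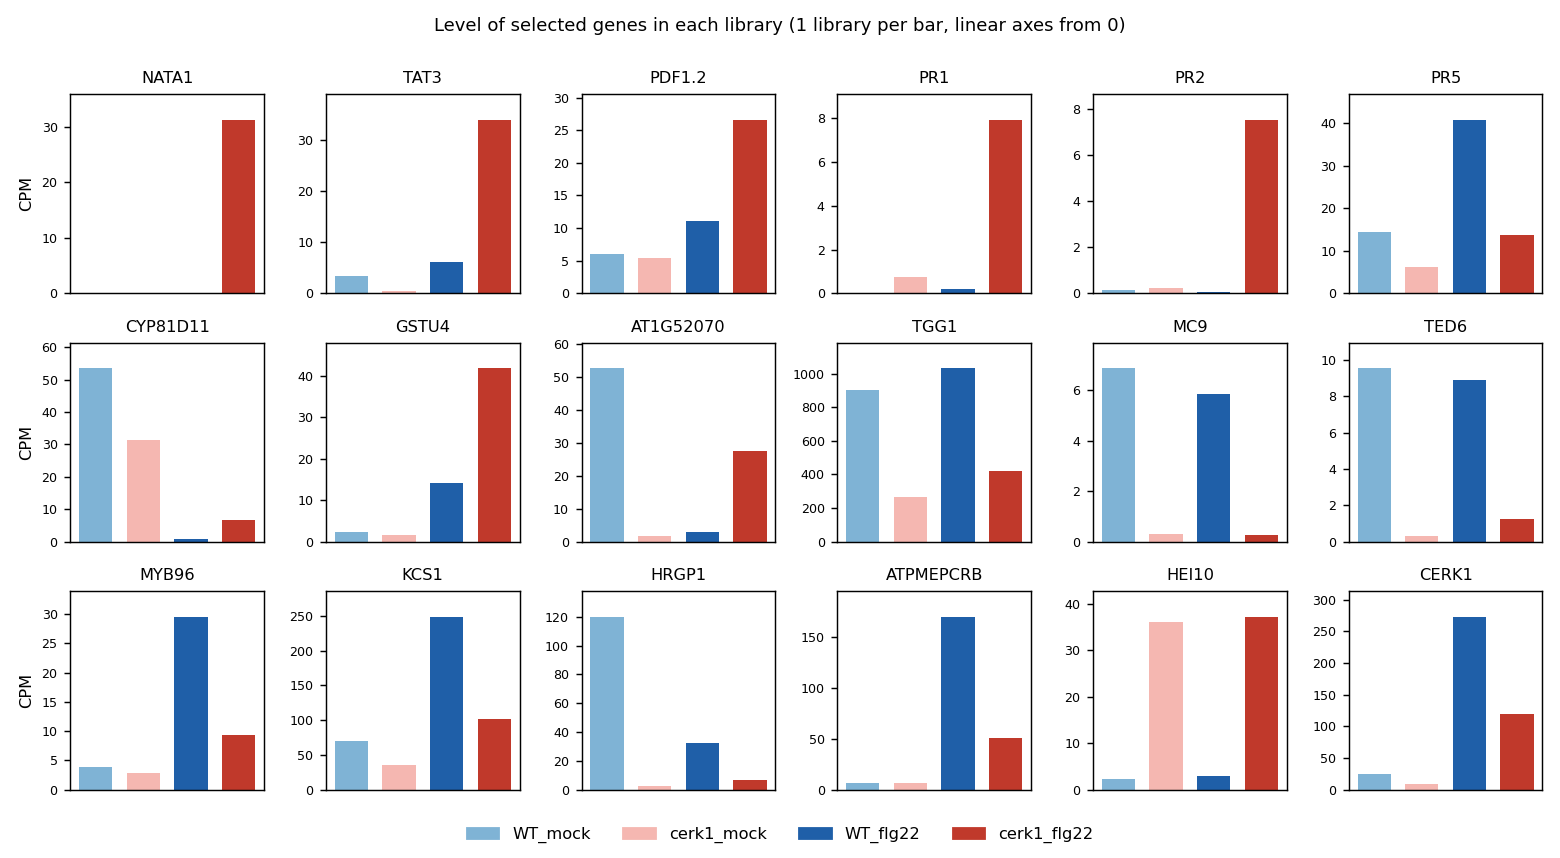
Level (CPM, linear axes from 0) of 18 genes in the 4 libraries, 1 bar per library. NATA1, TAT3, PR1 and PR2 were high in cerk1_flg22 and low in the other 3 libraries, PR5, MYB96, KCS1 and ATPMEPCRB were highest in WT_flg22, and MC9, TED6 and HEI10 separated the genotypes in both treatments.

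Genes of the immediate early response to flg22 were within 2-fold. Of 23 measured immediate early immunity genes, 0 were past 2-fold in either direction, and the median log2 ratio was 0.01. Of the 23, 12 lay above 0 and 11 below, and their summed level was 13970 CPM in WT_flg22 and 9407 CPM in cerk1_flg22. FRK1, a receptor-like kinase used as an flg22 marker, stood at 0.151, 0.603, 87.1 and 140 CPM and was 1.61-fold higher in cerk1_flg22 (1.51 to 1.71). RBOHD, the NADPH oxidase of the oxidative burst, stood at 60.2, 38.3, 648 and 349 CPM and was 1.86-fold lower (1.80 to 1.91). These 2 genes lay at the upper and the lower end of the list, at log2 ratios of 0.68 and -0.89.

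Most receptor genes were slightly lower in cerk1_flg22. Among 34 pattern receptors and their signalling partners, CERK1 was the 1 gene past 2-fold, the median log2 ratio was -0.22 and 28 of the 34 lay below 0. With scaling by library totals the median was -0.09 and 20 of 34 lay below 0. FLS2 had 35.0, 26.5, 210 and 163 CPM, 1.29-fold lower in cerk1_flg22 (1.23 to 1.35). The chitin receptor partners LYK4 and LYK5 were 1.40-fold (1.31 to 1.5) and 1.23-fold lower (1.12 to 1.35). BAK1 was 1.14-fold lower (1.10 to 1.17) and BIK1 1.06-fold lower (1.02 to 1.10), so all 5 partners were within 1.5-fold.

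Of 28 WRKY transcription factors, 1 was past 2-fold. WRKY75, a factor of senescence and phosphate starvation, stood at 1.46, 0.653, 4.66 and 17.57 CPM and was 3.77-fold higher in cerk1_flg22 (2.99 to 4.79). Of 21 ethylene genes 0 passed 2-fold in either direction. In indolic glucosinolate and camalexin synthesis 1 of 24 genes was higher and 1 lower. Of the 24, 19 lay below 0 with a median log2 ratio of -0.24, or 16 and -0.10 with scaling by library totals. The higher gene was CYP71A13, which makes a camalexin precursor, at 0.504, 1.96, 0.851 and 5.29 CPM. The lower one was IGMT1, a methyltransferase of indolic glucosinolates, at 21.7, 10.6, 485 and 232 CPM, and its near copy IGMT2 stood at 1034 and 614 CPM in WT_flg22 and cerk1_flg22. IGMT1 was no longer past 2-fold when the libraries were scaled by their totals.

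Receptor kinases of the cysteine-rich family (CRK), grouped by their annotation after values were seen, had 3 of 30 higher and 3 lower, or 1 and 1 with 5 added to CPM. CRK36 stood at 0.454, 0.553, 2.75 and 13.4 CPM, 4.86-fold higher in cerk1_flg22 (3.62 to 6.62). CRK41 stood at 5.39, 2.06, 133 and 44.8 CPM, 2.97-fold lower (2.75 to 3.21). Both were higher with flg22 than in mock in each genotype.

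In the list of electrophile response and detoxification, the genes past 2-fold were higher in cerk1_flg22. Of 19 measured genes of this list, 6 were at least 2-fold higher and 0 lower, and the median log2 ratio was 0.44. With 5 added to CPM these values were 2 genes and 0.22. The summed level of the list was 6296 CPM in WT_flg22 and 5158 CPM in cerk1_flg22, in which the glutathione transferase genes GSTF6 (1955 and 1545 CPM) and GSTF7 (1028 and 801 CPM), named after their values were seen, had ratios below 1. In the mock libraries the median of the same genes was -0.56, with 0 higher and 7 lower in cerk1. CYP81D11, a cytochrome P450 induced by xenobiotics, stood at 53.5, 31.4, 0.851 and 6.64 CPM and was 7.80-fold higher in cerk1_flg22 (4.69 to 13.8). ChlAKR, an aldo-keto reductase that removes reactive carbonyls, stood at 13.8, 5.18, 0.300 and 2.67 CPM (8.88-fold, 3.82 to 25.3). For CYP81D11 and ChlAKR the flg22 library was below the mock library in each genotype, and WT_flg22 was the lowest of the 4.

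Glutathione transferases, which couple electrophiles to glutathione, included genes of both courses. GSTU4 stood at 2.42, 1.51, 14.2 and 41.8 CPM and was 2.94-fold higher in cerk1_flg22 (2.56 to 3.37), above both mock libraries. GSTU24 stood at 22.1, 15.5, 8.66 and 24.8 CPM (2.86-fold, 2.40 to 3.43), and its low value was that of WT_flg22. In all, 5 of the 50 measured glutathione transferases were at least 2-fold higher (2 with 5 added to CPM) and 1 was lower, GSTF14 at 13.5 CPM in WT_flg22 and 4.38 CPM in cerk1_flg22.

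**Figure D3:**
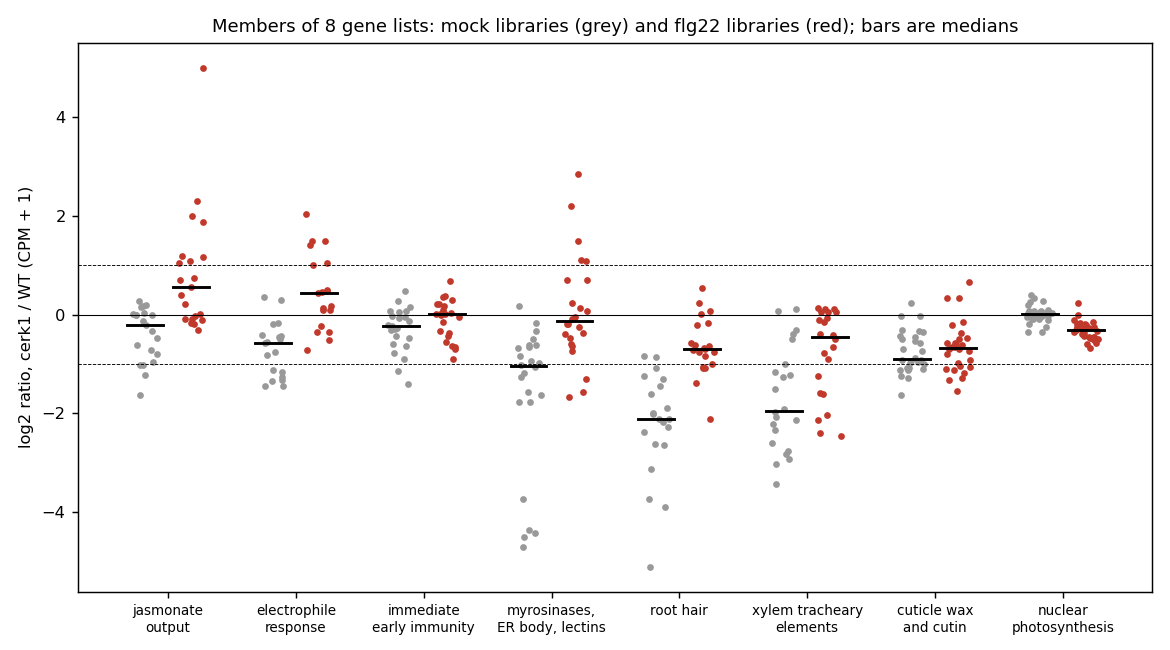
Log2 ratio of cerk1 to wild type (CPM + 1, vertical axis) for each measured member of 8 gene lists, in the mock libraries (grey) and the flg22 libraries (red), with black bars at the medians and dashed lines at 2-fold. The medians of jasmonate output and electrophile response lie at 0.55 and 0.44 with flg22 and at -0.22 and -0.56 in mock, and those of root hair genes at -0.70 and -2.12.

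Lectins and myrosinases, which belong to the glucosinolate defence and the ER bodies of Brassicaceae, differed in both directions. Of 24 measured genes, 5 stood past 2-fold on the higher side and 3 on the lower side in cerk1_flg22, and in mock 0 were higher and 13 lower. With 5 added to CPM, 2 were higher and 1 lower with flg22. Jacalin-type lectins encoded in tandem were among the genes with the highest ratios. AT1G52070 stood at 52.6, 1.61, 2.95 and 27.4 CPM, 9.29-fold higher in cerk1_flg22 (7.09 to 12.4), and AT1G52060 at 21.6, 0.0503, 1.5 and 10.5 CPM, 6.97-fold higher (4.74 to 10.6). Their neighbour AT1G52050 stood at 12.2, 0, 1.80 and 5.03 CPM. In all 3 the genotypes were in opposite order in mock and with flg22, and reads could not be checked for sharing between these similar neighbours. AT5G35940, a mannose-binding lectin gene elsewhere in the genome, stood at 9.18, 6.38, 2 and 15.2 CPM.

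Of 4 myrosinase genes in the list, which encode enzymes that hydrolyse glucosinolates, 3 were past 2-fold on the lower side in cerk1_flg22. TGG1, the main leaf myrosinase of guard cells and myrosin cells and singled out with its values known, stood at 903, 264, 1032 and 418 CPM, 2.47-fold lower in cerk1_flg22 (2.40 to 2.53). The root myrosinases BGLU34 and BGLU35, near copies of each other, stood at 7.96 and 8.31 CPM in WT_flg22 and at 1.81 and 2.16 CPM in cerk1_flg22. They were 4.39-fold (3.04 to 6.50) and 3.84-fold lower (2.73 to 5.50). TGG2, named after its values were seen, was within 2-fold, at 199, 82.2, 237 and 153 CPM. All 4 myrosinase genes were also lower in cerk1_mock than in WT_mock. RNA of whole seedlings was sequenced, so fewer cells of a type and less RNA per cell cannot be told apart for these genes or for the tissue markers that follow.

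The lowest ratios belonged to genes of dying xylem cells. Water-conducting tracheary elements build a secondary wall and then digest their own contents. MC9, a metacaspase that acts in this clearance, stood at 6.86, 0.301, 5.86 and 0.252 CPM and was 23.3-fold lower in cerk1_flg22 (9.70 to 73.0). TED6 and TED7, which take part in secondary wall formation of tracheary elements, had 8.91 and 5.06 CPM in WT_flg22 and 1.26 and 0.151 CPM in cerk1_flg22. TED7 had 3 counts in cerk1_flg22 and was 33.5-fold lower (11.1 to 165). RNS3, a ribonuclease, stood at 7.46, 0.201, 5.16 and 0.503 CPM and was 10.2-fold lower (5.35 to 22). In all 4 genes both cerk1 libraries lay below both wild-type libraries.

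Ratios of the secondary wall genes of the same cells were closer to 1. In a list of 22 measured xylem and secondary wall genes, put together after values were seen, 7 were at least 2-fold lower and 0 higher in cerk1_flg22, with a median log2 ratio of -0.44. With 5 added to CPM, 3 were at least 2-fold lower. The 7 genes were the 4 above and the nuclease BFN1, the xylanase RXF12 and the laccase LAC11, named after their values were seen. RXF12 stood at 23.0, 2.56, 21.4 and 6.39 CPM. The cellulose synthase subunits of the secondary wall had log2 ratios of -0.15 (CESA4), -0.39 (IRX1) and 0.11 (IRX3) with flg22, against -1.91, -1.22 and -1.50 in mock. The cysteine proteases XCP1 and XCP2 had log2 ratios of -0.65 and -0.78 with flg22; these 5 genes were likewise picked with their values known. In mock 17 of the 22 stood past 2-fold on the lower side in cerk1. In the 8 transgenic libraries MC9 ranged from 11.1 to 19.3 CPM, TED6 from 10.3 to 15.3 CPM and TED7 from 7.18 to 9.56 CPM. Those libraries were scaled separately, so these levels are not comparable with the ones above. An effect of the transgene on these genes was not tested.

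Root hair genes had a median log2 ratio of -0.70. Of 21 measured, 5 were at least 2-fold lower and 0 higher in cerk1_flg22, and 17 lay below 0. With scaling by library totals 2 were at least 2-fold lower and the median was -0.57, and with 5 added to CPM these values were 2 and -0.40. HRGP1, an extensin-type wall protein, stood at 120, 2.51, 32.3 and 6.75 CPM, 4.79-fold lower (3.97 to 5.81). EXT10 stood at 64.6, 3.42, 18.18 and 6.39 CPM and the proline-rich protein PRP3 at 51.7, 2.96, 21.5 and 9.71 CPM. These genes were highest in WT_mock and lowest in cerk1_mock, with the flg22 libraries between. The summed level of the 21 genes was 452, 48.9, 225 and 130 CPM, and that of the 22 xylem genes 264, 68.9, 220 and 137 CPM. What a smaller amount of these cells or tissues contributes to the lower genes was not tested.

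In mock 19 of the 21 root hair genes stood past 2-fold on the lower side in cerk1, with a median of -2.12. Extensins, which are repetitive and similar to each other so that reads may have been shared among them, had 6 of 17 members lower with flg22, 3 with 5 added to CPM, and 10 lower in mock. AT3G22142, a lipid-transfer-type protein, had the lowest ratio of the named genes in mock and stood at 223, 2.41, 36.9 and 8.91 CPM.

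Other root lists had 0 genes past 2-fold with flg22. The 16 endodermis, Casparian strip and suberin genes had a median of -0.12 with flg22, against 8 genes lower and a median of -0.95 in mock. The 16 other root markers had a median of 0.13 with flg22.

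Genes of the cuticle, the wax and cutin layer of the shoot surface, were lower in cerk1_flg22. In a list of 28 measured genes, put together after values were seen, 8 were at least 2-fold lower and 0 higher, 25 lay below 0 and the median was -0.68. In mock 9 were past 2-fold on the lower side in cerk1, 27 lay below 0 and the median was -0.89. With scaling by library totals 4 were at least 2-fold lower and the median was -0.55. MYB96, a transcription factor that activates wax synthesis, stood at 3.83, 2.92, 29.6 and 9.41 CPM and was 3.14-fold lower in cerk1_flg22 (2.66 to 3.72). KCS1, a condensing enzyme of very-long-chain fatty acid synthesis, stood at 70.2, 36.1, 249 and 102 CPM, 2.44-fold lower (2.31 to 2.57). KCS5, KCS10 and the transporter ABCG11, which exports cuticular lipids, were 2.60-fold (2.28 to 2.96), 2.08-fold (1.99 to 2.17) and 2.31-fold lower (2.12 to 2.52).

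KCS6, ABCG12 and the cutin hydroxylase CYP86A2, named after their values were seen, were also past 2-fold. The genes differed in their course over treatments: MYB96, KCS1 and CYP86A2 were higher in WT_flg22 than in WT_mock, whereas KCS6 was lower, at 230 and 357 CPM. GDSL-type esterases and lipases, a family grouped by annotation after values were seen that includes cutin synthases and cutinases, had 11 of 45 members at least 2-fold lower and 0 higher, against 13 lower in mock. With 5 added to CPM, 6 were lower with flg22. AT1G33811 had the lowest ratio of the family, at 33.7, 8.04, 21.1 and 4.53 CPM. AT1G29670 stood at 139, 52.2, 387 and 129 CPM, 3.00-fold lower (2.87 to 3.14), and the cutinase CDEF1 at 59.3, 16.5, 84.5 and 26.7 CPM, 3.17-fold lower (2.87 to 3.5). The gene KCS13, a relative of KCS1 and KCS5, stood at 6.75, 1.96, 17.4 and 3.67 CPM and was among the 12 genes with the lowest ratios.

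Of 10 markers of shoot epidermis and guard cells, 1 was at least 2-fold lower and 9 lay below 0, with a median of -0.35. Nuclear photosynthesis genes had 0 of 32 past 2-fold, yet 31 lay below 0, with a median of -0.32. Their summed level was 88170 CPM in WT_flg22 and 73700 CPM in cerk1_flg22, against 89810 CPM in WT_mock and 92280 CPM in cerk1_mock. PSAN, a subunit of photosystem I, had the lowest ratio of the list at 1303 and 820 CPM in the flg22 libraries. With scaling by library totals 29 of the 32 lay below 0 and the median was -0.18. What these marker levels contribute to the cuticle and myrosinase differences was not tested.

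Several genes that were strongly higher with flg22 in wild type reached a lower level in cerk1. Within wild type, 46 of the 183 lower genes had at least 2-fold more in WT_flg22 than in WT_mock and 19 at least 2-fold less. WT_flg22 enters both comparisons, so a high value there can alone bring such counts about, and they give no separate support. How many of all measured genes did the same was not counted, so these counts cannot be read as many or few. ATPMEPCRB, a pectin methylesterase that alters cell wall pectin, stood at 7.06, 6.23, 170 and 51.1 CPM, 3.32-fold lower in cerk1_flg22 (3.1 to 3.57). AT3G10720, of the same family, stood at 39.4, 13.9, 767 and 315 CPM, 2.44-fold lower (2.37 to 2.51). ERD6, a sugar transporter homologue induced by dehydration and singled out with its values known, stood at 115, 70.7, 2227 and 1042 CPM, 2.14-fold lower (2.1 to 2.17).

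The early auxin gene IAA1 stood at 2.12, 1.76, 9.67 and 3.83 CPM and IAA5 at 0.0504, 0.0503, 1.75 and 0.252 CPM. They were the 2 genes past 2-fold among 22 auxin genes, and with 5 added to CPM 0 were. In IAA1, IAA5, ATPMEPCRB, AT3G10720 and ERD6 the level in cerk1_flg22 was above that in cerk1_mock and below that in WT_flg22. For IAA5 the level in cerk1_mock was that of 1 count, so its order rests on few reads. Within wild type, 13 of the 121 higher genes had at least 2-fold more in WT_flg22 than in WT_mock and 40 at least 2-fold less. Here too WT_flg22 enters both comparisons, and a low value there can alone bring such counts about. The matching count over all measured genes is again missing.

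Iron uptake genes were lower in part. Of 20 measured iron deficiency genes, 3 were at least 2-fold lower and 0 higher, with a median of 0.02. With 5 added to CPM, 0 were past 2-fold, and among the 13 genes reaching 5 CPM in a library 1 was. IRT1, the iron transporter of the root epidermis, stood at 7.21, 1.71, 11.3 and 3.17 CPM, 3.55-fold lower (2.68 to 4.78). The ferric reductase gene FRO2 was 5.35-fold lower (3.11 to 9.77) and the metal transporter gene IREG2 3.33-fold lower (2.18 to 5.23). FRO4 and FRO5, neighbouring reductase genes of similar sequence, are not members of the iron deficiency list and are not counted in it. They were among the 12 genes with the lowest ratios, at 21.7 and 21.1 CPM in WT_flg22 and 4.88 and 4.83 CPM in cerk1_flg22. Within the list, the regulators bHLH38 and bHLH39, named after their values were seen, had ratios in the other direction, at log2 values of 0.81 and 0.76.

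Of 17 phosphate starvation genes 1 was higher and 1 lower, with 15 below 0 and a median of -0.45, against -0.50 in mock. The higher gene was the ribonuclease gene RNS1, at 0.651 and 2.62 CPM in WT_flg22 and cerk1_flg22. The lower one was the phosphatase gene PS2, at 4.71 and 1.21 CPM. SWEET11, a sucrose exporter of the phloem, was the 1 lower gene among 13 of sugar status and transport, at 135, 61.7, 113 and 54.7 CPM. Lists with 0 genes past 2-fold with flg22 were aliphatic glucosinolates (14 measured), phenylpropanoids and lignin (18), flavonoids and anthocyanins (11), cell cycle (24), heat shock (12), circadian clock (17) and abscisic acid, cold and drought (12). Of 9 chitinase genes PR4 was the 1 past 2-fold, and of 20 plastid genome genes 3 were higher. The plastid genes had a median of 0.53, with 17 above 0, and the number past 2-fold was 6 with 0.5 and 0 with 5 added to CPM. Over all 28 lists made for the comparison, 545 genes were measured, counting each once, of which 28 were at least 2-fold higher and 19 lower. Over all 18872 measured genes the shares were 0.641% higher and 0.97% lower. The lists were chosen with earlier results of these data known.

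**Figure D4:**
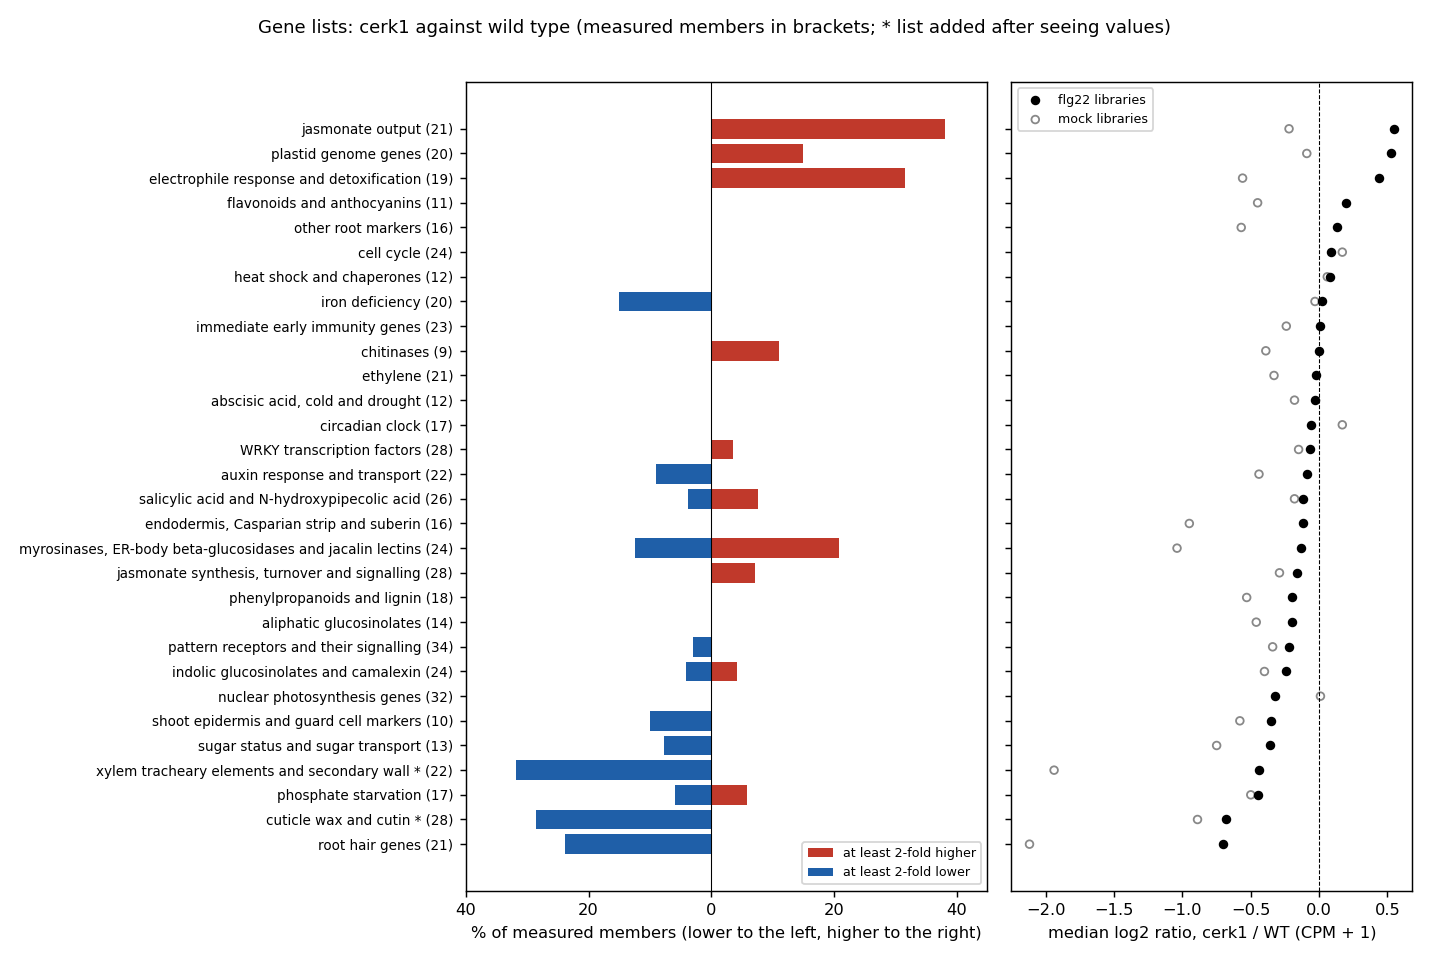
For each gene list, the left panel gives the percentage of measured members at least 2-fold higher (red, to the right) or lower (blue, to the left) in cerk1_flg22 than in WT_flg22, and the right panel the median log2 ratio of cerk1 to wild type (CPM + 1) in the flg22 libraries (black) and the mock libraries (open). The medians with flg22 run from -0.70 for root hair genes to 0.55 for jasmonate output, an order of lists that changes with the value added to CPM and the filter, and lists marked with an asterisk were put together after values were seen.

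The comparison with flg22 and the one in mock share no library, so the genes past 2-fold could be set against each other. Of the 183 genes lower in cerk1_flg22, 100 (54.6%) were also at least 2-fold lower in cerk1_mock, which is 13.2% of the 756 lower there. Of the 121 genes higher in cerk1_flg22, 8 (6.61%) were also higher in cerk1_mock, which is 14% of the 57 higher there, and 22 of the 121 were at least 2-fold lower in cerk1_mock, which is 2.91% of the 756. Among the 183 lower genes 0 were at least 2-fold higher in mock. In the mock libraries the 183 genes had a median log2 ratio of -1.09, with 172 below 0, and the 121 higher genes one of -0.17, with 71 below 0. The 756 genes lower in cerk1_mock had a median of -0.33 with flg22, and 442 of them were within 1.5-fold there.

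Ranked by the smaller of their 2 absolute log2 ratios, the 8 annotated genes that differed most in the same direction in both treatments were HEI10, MC9, TED7, TED6, HRGP1 and RNS3, described above, the pentatricopeptide repeat gene AT1G74750 and the germin-like gene GL22. AT1G74750 stood at 3.63, 0, 7.36 and 0.906 CPM and GL22 at 9.63, 0.603, 12.6 and 2.37 CPM. The 8 genes higher in both treatments were HEI10, MRD1, QQS, AT3G21620, AT2G14247, AT5G14610, AT5G39980 and 1 locus outside the annotation.

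**Figure D5:**
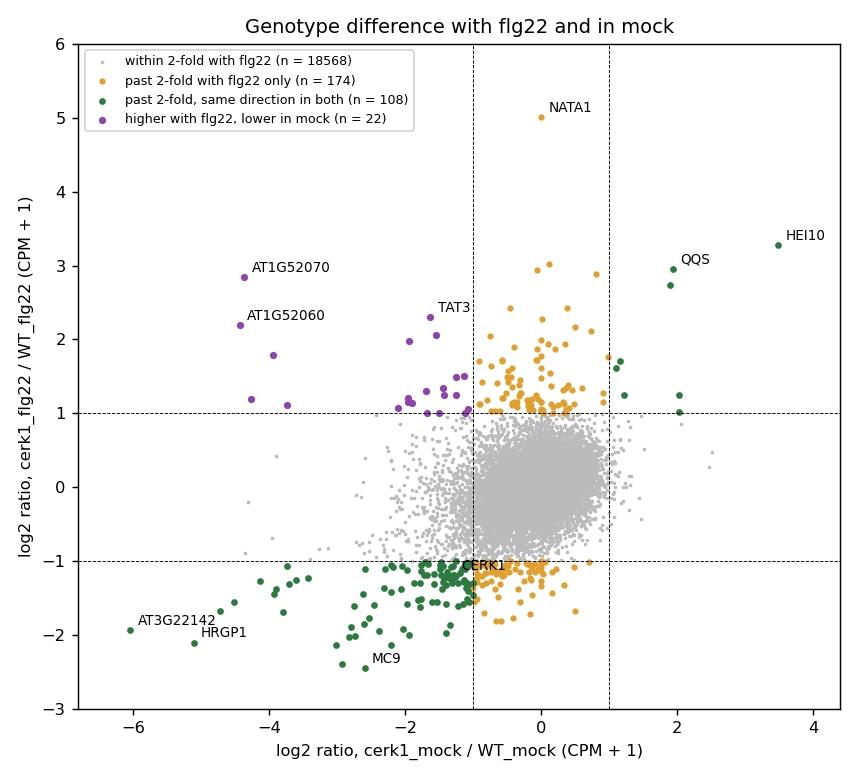
Log2 ratio of cerk1 to wild type (CPM + 1) with flg22 (vertical axis) against that in mock (horizontal axis) for each of 18872 measured genes, with dashed lines at 2-fold. Green points are the 108 genes past 2-fold in the same direction in both treatments, violet points the 22 genes higher with flg22 and lower in mock, and orange points the 174 genes past 2-fold with flg22 but not in mock.

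The transgenic lines gave a measure of how much single libraries differ in these genes. Of 18704 genes present in both tables, 557 (2.98%) differed by at least 2-fold between the 2 libraries of at least 1 line. Among the genes higher in cerk1_flg22 this held for 29 of 120 (24.2%), and among the lower genes for 15 of 183 (8.20%). The median over genes of the largest log2 gap between libraries of a line was 0.71 for the higher genes, 0.41 for the lower genes and 0.29 for all genes. Ranges over the 8 libraries also take in differences between lines. TAT3 ranged from 14.3 to 129 CPM over them, with 129 and 67.1 CPM in CERK1_3D and at most 27.3 CPM in the other lines. PDF1.2c ranged from 0.331 to 12.4 CPM, whereas GL22 ranged from 17.7 to 19.9 CPM. The largest gaps between libraries of a line were 2.99 for NATA1, 1.67 for PDF1.2c, 1.01 for PR2 and 1.02 for PR1 on the log2 scale, against 0.42 for MC9 and 0.37 for TED7.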

How the data were processed

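RNA sequencing of whole Arabidopsis seedlings was analysed from the deposited tables of whole-number counts per gene, to which the authors had applied no normalization, judging by the values. Reads were placed on TAIR10 per the submitters' processing notes. The aligner, counting tool, strand setting and filters are not given in the sources used here. Gene names came from the TAIR10.1 annotation of RefSeq, which matched 21636 of 21773 annotated loci. The other 208 of the 21981 entries are loci outside the annotation.

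TMM factors were computed in edgeR 4.0.16 (R 4.3.3) over the 4 libraries of the flg22 experiment, and separately over the 8 libraries of the lines. Genes with at least 1 CPM in at least 1 of the 4 libraries were kept, 18872 in number. Log2 ratios were formed on CPM + 1, a gene was counted at 2-fold or more, and no test was made because each group had 1 library. Ratios of single genes are ratios of CPM without the added 1, with a 95% exact binomial counting interval. A ratio against 0 counts was computed against 3 counts and is a lower bound. Since the libraries carried no molecular identifiers that the sources mention, intervals cover counting error only. The calculation was tested on simulated data.

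Genes were named as the 12 highest and 12 lowest annotated genes, up to 4 members of each list with the largest ratios, the 8 genes most different in both treatments, and CERK1 with its neighbours and partners. Genes outside this rule are said to have been named after their values were seen. The members and gene lists were chosen with earlier results of these data known. Of 625 entries in 28 lists, 11 were dropped because locus and symbol disagreed, and 2 lists and 10 families by annotation were added after values were seen. Alternatives changed the added value, the scaling (library totals, DESeq2 1.42.0 size factors, TMM within a treatment), the filter and the features.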

Additional observations from a re-analysis of the deposited data

Results flagged for a closer look

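For 22 genes the genotypes stood in opposite order in the 2 treatments: each was at least 2-fold higher in cerk1_flg22 than in WT_flg22 and at least 2-fold lower in cerk1_mock than in WT_mock. With 1 library per combination this difference between treatments was not tested. The tandem lectin genes AT1G52070, AT1G52060 and AT1G52050 had a log2 genotype difference with flg22 minus that in mock of 7.21, 6.62 and 4.83. The value was 3.93 for the aminotransferase gene TAT3, 2.75 for the aldo-keto reductase gene ChlAKR, 2.63 for AT5G10130 of the Ole e 1 family and 2.50 for UNE11 of the invertase and pectin methylesterase inhibitor family. In the lectin genes, ChlAKR, AT5G10130 and UNE11 the level was higher in WT_mock than in WT_flg22, while TAT3 was higher in WT_flg22.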

How the results depend on the processing

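With 1 library per group no replicate could be left out. No paired analysis was possible because each group held 1 library and no test was made. The choice of the value added to CPM moved the counts most. With 0.5 added, 220 genes were at least 2-fold higher, 31 and 18 passed 4-fold higher and lower, 15 were higher in both treatments, 35 were higher with flg22 and lower in mock, and 122 were higher in mock. With 5 added, the 2-fold counts were 31 higher and 74 lower, 3 and 0 passed 4-fold, 2 were higher and 37 lower in both treatments, 4 had opposite directions, 13 list members were higher and 7 lower, and in mock 8 genes were higher and 286 lower. Scaling by library totals left 2 genes at least 4-fold lower, and requiring 5 CPM left 5 genes higher in both treatments and 34 higher in mock. The other counts over all genes and over the pooled list members stayed within 1.5 times, but counts of single lists moved further. With 5 added, the higher genes were 4 in place of 8 for jasmonate output, 2 in place of 6 for electrophile response, 2 in place of 5 for glutathione transferases, 2 in place of 5 for lectins and myrosinases, 0 in place of 3 for peroxidases and 0 in place of 3 for plastid genes, which were 6 with 0.5 added. The lower genes with 5 added were 3 in place of 7 for xylem, 2 in place of 5 for root hairs, 6 in place of 11 for GDSL, 3 in place of 6 for extensins and 0 in place of 3 for iron. Small counts of other lists also moved. Of 170 named genes measured, 0 changed direction, 39 were no longer past 2-fold with 5 added, and 6 with library totals. Under library totals the medians of 8 of 40 lists and families changed sign, all of them within 0.13 of 0 in the main scaling. Low counts limit the genes near 0: 1 count was worth 0.0501 CPM in WT_flg22 and 0.0503 CPM in cerk1_flg22.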

Other observations

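Families not described above also held genes past 2-fold. Among class III peroxidases, secreted enzymes that act on cell walls and reactive oxygen, 3 of 51 were at least 2-fold higher in cerk1_flg22 and 2 lower, or 0 and 1 with 5 added to CPM. AT1G14550 stood at 0, 0, 3 and 10.12 CPM in WT_mock, cerk1_mock, WT_flg22 and cerk1_flg22, and AT5G64110 at 19.8, 5.48, 34.5 and 14.6 CPM. Among protease inhibitor and lipid transfer proteins 2 of 51 were higher and 6 lower. EARLI1, a lipid-transfer-type protein of systemic immunity and cold response, stood at 251, 472, 181 and 405 CPM, above wild type in both treatments, whereas AT4G22485 stood at 217, 14.7, 79.0 and 23.7 CPM. Among 18 proteins of the Ole e 1 and extensin family 1 was higher and 3 lower, with AT3G16660 at 88.2, 34.4, 105 and 28.2 CPM. These families and genes were picked after their values were seen.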
